A study of Mus musculus with 14 samples.

Results

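The subunits of oxidative phosphorylation were followed in mouse liver sinusoidal endothelial cells (LSECs) after a single toxic injury of the liver. The members were chosen by gene symbol and not by a cut on any measured value, but with earlier results of these data known. Every protein-coding gene of the GENCODE vM21 annotation whose symbol belongs to the families Nduf (complex I), Sdh (II), Uqcr (III), Cox4 to Cox8 (IV) or Atp5 (V), or is one of mt-Nd, mt-Cytb, mt-Co and mt-Atp, and which had a row in the count table, was taken. This gave 98 genes of the 54524 in the table, 85 encoded in the nucleus and 13 in mitochondrial DNA. By symbol, 37 of the nuclear members belonged to complex I, 4 to complex II, 8 to complex III, 18 to complex IV and 18 to complex V, and the 13 mitochondrial ones to complexes I (7), III (1), IV (3) and V (2). Ndufa4 and Ndufa4l2 are counted under complex I because of their symbols, although the Ndufa4 protein is known as a subunit of complex IV.

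Total RNA of LSECs from male Balb/c mice, aged 10 to 12 weeks per the labels, was sequenced, per the study's methods, after SMART-seq library preparation, which primes at poly(A) tails. The cells were sorted as CD32+ F4/80- UV- PI-, without culture. The groups were healthy, non-injected mice (n = 4) and mice killed at day 1 (n = 2), day 3 (n = 4) or day 7 (n = 4) after 1 intraperitoneal injection of carbon tetrachloride (CCl4) at 0.5 µl/g in mineral oil. None of these groups received oil alone, so the injection, the oil and CCl4 cannot be told apart. Whether a sample came from 1 mouse or several is not given in the sources used here, so p-values measure the spread between samples, which may be technical. CCl4 is a toxicant that hepatocytes turn into a radical, which kills the cells around the central veins.

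Oxidative phosphorylation passes electrons from NADH (complex I) and succinate (complex II) through ubiquinone, complex III and cytochrome c to oxygen at complex IV, and the proton gradient built on the way drives the ATP synthase, complex V. Complex II is encoded in the nucleus alone, whereas each of the other complexes joins subunits of both genomes, so their assembly needs products of nuclear transcription and of the mitochondrial RNA polymerase. Several subunits exist as isoforms that differ between tissues or with oxygen supply. LSECs are the fenestrated, scavenging endothelium of the liver sinusoids, and endothelial cells are known to draw much of their ATP from glycolysis.

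The libraries held 46401496 to 103912264 counts. All 10 LSEC markers looked at, among them Stab2, Lyve1 and Clec4g, were detected in every group. Their summed level was 16310 to 19680 CPM (counts scaled to a common library total) in healthy samples, 12420 to 15180 CPM at day 1, 10500 to 14440 CPM at day 3 and 9796 to 14130 CPM at day 7. By this sum every healthy sample was above every injected one. Their mean log2 CPM overlapped, at 10.12 to 10.45 in healthy samples and 9.63 to 10.27 in injected ones. Against healthy samples, 2 of the 10 were called higher and 1 lower at day 1, 1 higher and 1 lower at day 3, and 0 at day 7. The 4 day 3 libraries stood apart from each other. In day 3 replicates 1 and 2, 34678 and 34768 genes had at least 1 count, against 28203 and 22986 in replicates 3 and 4, and 11 markers of monocytes and neutrophils averaged 7.21 and 6.41 in log2 CPM against 3.77 and 2.53. Day 3 counts and calls are therefore also given for each pair of libraries.

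Healthy LSECs held far more RNA per kilobase from mitochondrial than from nuclear subunit genes. Per length, the median over the 13 mitochondrial members was 1124 CPM per kb in healthy samples, from 256.1 to 2963 CPM per kb, and the median over the 85 nuclear members was 75.8 CPM per kb. The most abundant per length were mt-Co3 and mt-Co1, core subunits of cytochrome c oxidase, at 2963 and 2607 CPM per kb. The nuclear member with the highest level per length was Cox6a1, the widely expressed form of a complex IV subunit, at 1033 CPM per kb, which placed it 8th. Of the 98 members, 96 passed the filter on low counts. Cox8c, a form known from testis, and a second gene ID for Atp5o (ENSMUSG00000116933) had no count in any library. The exons of 30 nuclear members overlap another gene, and 25 nuclear and 9 mitochondrial members have a near-identical stretch elsewhere in the transcriptome (at least 95% identity over at least 100 bases), so their counts are less certain.

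Nuclear subunit genes are known for promoters that bind NRF-1, ETS factors of the GABP (NRF-2) kind and YY1, and the letters of these sites are shown here as a feature of the sequence that the choice by symbol did not use. RefSeq promoter windows of 300 bases around the annotated start (GRCm38.p6) were matched by symbol for 67 of the 85 nuclear members. The letters GCGCATGC, the core of the NRF-1 site, stood on either strand in 10 of the 67 (14.9%) and in 3.05% of the 27025 windows of all genes. The ETS core CCGGAAG stood in 16 (23.9%) against 9.93% of all windows, and the YY1 core AAGATGGC in 9 (13.4%) against 3.19%. Against the 17492 windows of protein-coding genes alone, the shares for comparison were 3.94%, 12.9% and 3.57%. Both the NRF-1 and the ETS core stood in 5 members, namely Atp5k, Atp5l, Cox6a1, Sdhb and Uqcr11. An NRF-1 or an ETS core stood in 21 of the 67 (31.3%), so most windows held neither. The 3 of the 5 members in which all NRF-1 and ETS cores of the window fit within 100 bases are printed 5′ to 3′ on the strand of the gene, with the cores on either strand in capitals. They lie at chr5:108434369-108434461 on the minus strand, chr4:140961205-140961295 on the plus strand and chr10:80406806-80406899 on the minus strand.
Atp5k: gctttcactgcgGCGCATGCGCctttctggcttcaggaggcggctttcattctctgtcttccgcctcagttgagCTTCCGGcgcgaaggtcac
Sdhb: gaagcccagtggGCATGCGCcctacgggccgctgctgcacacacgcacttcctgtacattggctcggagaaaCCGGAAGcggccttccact
Uqcr11: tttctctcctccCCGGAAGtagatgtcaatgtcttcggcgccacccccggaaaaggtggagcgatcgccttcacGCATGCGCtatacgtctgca
In Atp5k, which encodes the small e subunit of the ATP synthase, the NRF-1 core and its reverse complement overlap in the run of 10 capitals. Sdhb is the iron-sulfur subunit of complex II and Uqcr11 a small subunit of complex III. A match of letters is a description and not a site shown to be bound, and a window without a match says only that these letters were not in it. On the log2 scale these 3 genes stood at differences of -0.42 (Sdhb), -0.52 (Atp5k) and -0.91 (Uqcr11) between day 7 and healthy samples. In each, every day 7 sample was below every healthy sample. The same held for 57 of the 83 nuclear members tested, whose median difference was -0.58, and for 12.1% of all genes.

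The balance of the 2 genomes lay furthest from healthy samples at day 7. The log2 ratio of the summed mitochondrial to the summed nuclear member counts was -0.12, 0.18, 0.41 and 0.54 in the healthy samples. It stood at 0.75 and 0.14 at day 1, at 0.12, 0.06, 1.12 and 0.96 at day 3, and at 0.89, 1.47, 2.03 and 1.32 at day 7. All 4 day 7 samples lay above all healthy samples, and the means were 0.25 ± 0.29 (SD, n = 4) and 1.43 ± 0.47 (SD, n = 4). The ratio of counts was thus 0.921 to 1.45 in healthy samples and 1.85, 2.77, 4.09 and 2.49 at day 7. Mitochondrial subunits took 1.53% ± 0.20 of all counts in healthy samples and 2.45% ± 0.65 at day 7, and nuclear subunits 1.29% ± 0.19 and 0.891% ± 0.083 (SD, n = 4 each). These values over the members carry no test, since the list was chosen with earlier results of these data known. Because the tissue was sorted and sequenced in bulk, fewer cells of a type and less RNA per cell cannot be told apart.

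**Figure D1:**
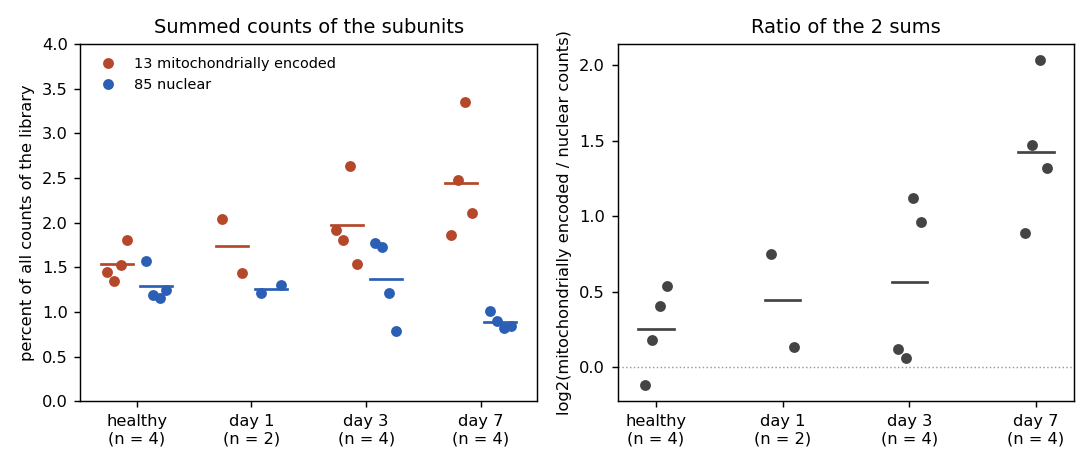
Percent of each library's counts on the 13 mitochondrial and 85 nuclear members (left) and the log2 ratio of the 2 sums (right), 1 point per sample by group, with bars at the group means. In the ratio, the 4 day 7 samples sit between 0.89 and 2.03, all above the healthy samples, which sit between -0.12 and 0.54, and the 4 day 3 samples fall into a low and a high pair.

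The distance between day 7 and healthy samples was 1.18 on this log2 scale and stayed between 0.97 and 1.35 when any 1 library was left out. Day 3 depended on which libraries were kept. Its distance from healthy samples was -0.16 with replicates 1 and 2 alone and 0.79 with replicates 3 and 4 alone.

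At day 7, the nuclear subunits of all 5 complexes lay, by their medians, lower than in healthy samples and the mitochondrial ones higher, but no single member passed the test. The median log2 difference was -0.58 over the 83 nuclear members tested and 0.59 over the 13 mitochondrial ones, beside 0.02 over all 26626 genes tested. The fitted difference was below 0 for 77 of the 83 nuclear members and above 0 for all 13 mitochondrial members. edgeR's quasi-likelihood test with Benjamini-Hochberg adjustment called 0 of the 96, where it called 3.18% of all genes. At an unadjusted p under 0.05 there were 40 of the 96, where 5609 of the 26626 genes were. Of the 40, 33 nuclear members were lower and 2 higher and 5 mitochondrial members were higher. DESeq2 called 7 of the members, where it called 2713 of 23399 genes. With sample weights, limma-voom called 62, where it called 7047 of 26626 genes. edgeR with only the healthy and day 7 libraries called 42, and no count over all genes is given for that fit or for the next one. Without day 7 replicate 1, edgeR called 5, of which 2 were higher and 3 lower. In 57 nuclear members all 4 day 7 samples lay below all 4 healthy samples, where 12.1% of all genes did so. In 1 nuclear and 3 mitochondrial members they all lay above, where 8.72% of all genes did so.

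**Figure D2:**
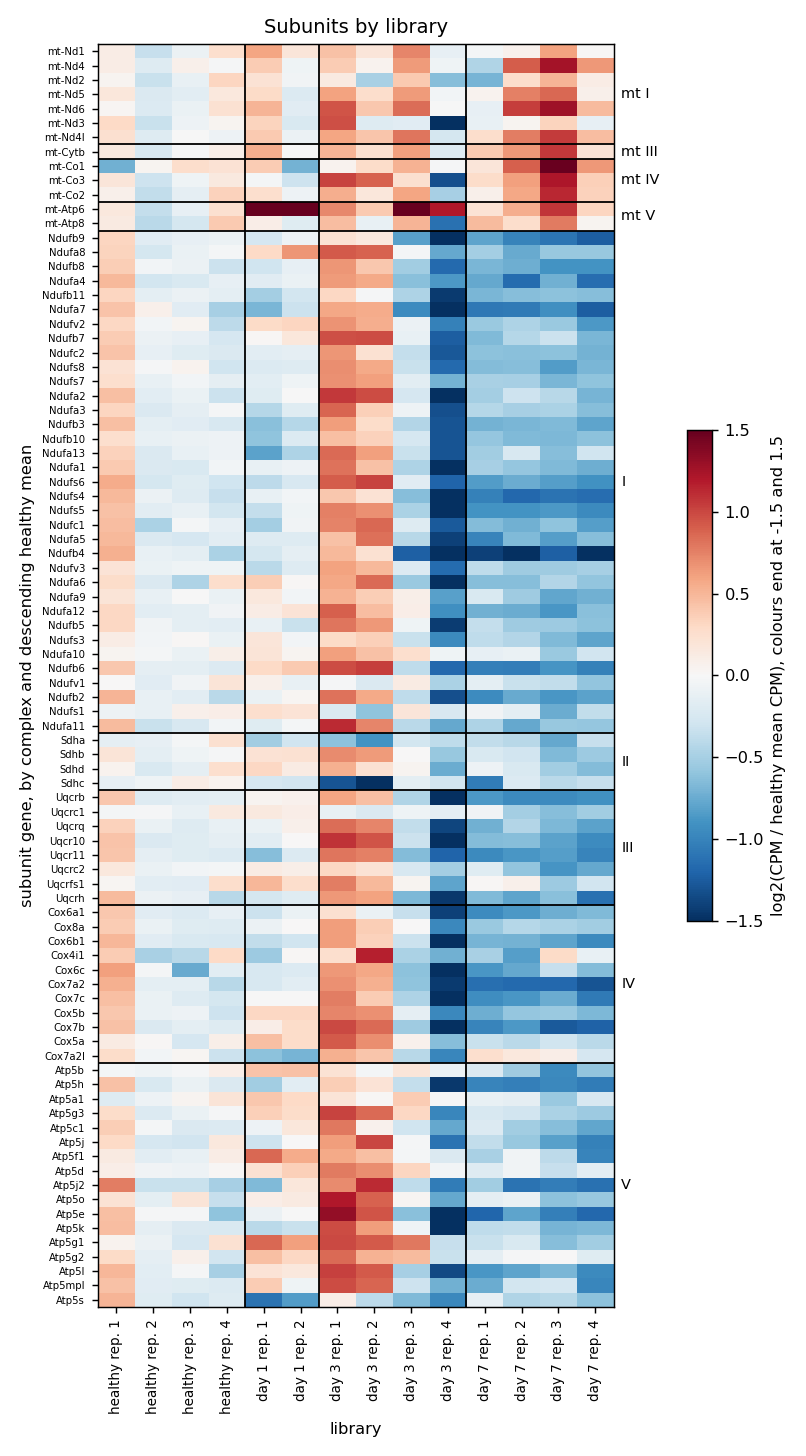
Heat map of 88 members with a healthy mean above 5 CPM, coloured by the log2 CPM of each library minus the healthy mean and ordered by genome and complex, with colours ending at 1.5 in either direction. The 4 day 7 columns are mostly blue for nuclear and red for mitochondrial members, and day 3 replicates 1 and 2 differ from replicates 3 and 4.

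Nuclear complex I, the NADH dehydrogenase, had a median log2 difference of -0.62 at day 7, with 36 of its 37 members below 0. Below every healthy sample were 31, where 12.1% of all genes were. The 7 core members, which carry the flavin, the iron-sulfur clusters and the quinone pocket, stood at a median of -0.56 and the other 30 at -0.64. Ndufs8, which carries iron-sulfur clusters of complex I, was measured at 172, 147, 154 and 121 CPM in healthy samples and at 94.8, 95.8, 83.1 and 92.1 CPM at day 7. Its groups did not overlap, and the difference was -0.70 ± 0.31 on the log2 scale (SE, edgeR adjusted p = 0.213). Ndufs1, the largest iron-sulfur subunit, stood at 58.2 ± 4.27 CPM in healthy samples and 47.1 ± 9.54 CPM at day 7 (SD, n = 4 each), with overlapping groups. Ndufv1, which binds the flavin, stood at a mean of 50.7 CPM at day 7 against 64.7 CPM.

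Complex II, succinate dehydrogenase, oxidises succinate and belongs to the citric acid cycle as well. Its 4 members had a day 7 median of -0.45 on the log2 scale and all lay below 0. Sdha, the flavoprotein, was at 187, 188, 201 and 242 CPM in healthy samples and at 159, 153, 120 and 161 CPM at day 7, with no overlap. Sdhc, a membrane anchor, was at 91.8 to 108 CPM in healthy samples and at 48.1 to 86.2 CPM at day 7, again without overlap. Sdhd, the other anchor, overlapped, with means of 129 and 101 CPM.

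In complex III, the cytochrome bc1 complex, all 8 nuclear members lay below 0 at day 7, with a median of -0.70. Of these, 6 were below every healthy sample, where 12.1% of all genes were. Uqcrc2, a core protein of the matrix arm, was at 138, 115, 121 and 122 CPM in healthy samples and at 109, 82.5, 67.0 and 72.6 CPM at day 7. Uqcrfs1, the Rieske iron-sulfur protein, had a difference of -0.16 and overlapping groups. Mitochondrial mt-Cytb, which carries haems of this complex, lay higher at day 7, from 2165, 1662, 1938 and 2082 CPM to 2566, 3072, 4086 and 2256 CPM. Every day 7 sample was above every healthy sample for mt-Cytb, and the difference was 0.61 ± 0.24 (SE, edgeR adjusted p = 0.161).

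Complex IV, cytochrome c oxidase, held the widest range of nuclear members, from -2.08 to 2.29 at day 7 with a median of -0.63, and its minor isoforms, described further on, were counted at a few CPM or less. Of its 17 nuclear members tested, 8 were below every healthy sample and 1 above, where 12.1% and 8.72% of all genes were. Among the abundant members, Cox5b, Cox6a1, Cox6b1, Cox7a2 and Cox8a were each below every healthy sample. Cox7a2l overlapped, with means of 96.3 CPM in healthy samples and 101 CPM at day 7. Cox7a2 was at 326, 203, 204 and 169 CPM in healthy samples and at 103, 101, 99.5 and 91.7 CPM at day 7, a difference of -1.19 ± 0.37 (SE, edgeR adjusted p = 0.0919). Cox4i1, the common form of subunit 4, overlapped, at 237 to 432 CPM in healthy samples and 188 to 404 CPM at day 7, and its exons overlap those of another gene. The mitochondrial core subunits mt-Co1, mt-Co2 and mt-Co3 lay at differences of 0.88, 0.59 and 0.66. For mt-Co1 the healthy samples were at 2438, 4143, 4834 and 4697 CPM and the day 7 samples at 4580, 7491, 11294 and 6319 CPM, of which replicate 1 alone fell inside the healthy range.

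For complex V, the ATP synthase, 17 of 17 nuclear members tested lay below 0 at day 7, with a median of -0.52. Of these, 9 were below every healthy sample, where 12.1% of all genes were. Atp5b, the catalytic beta subunit, was at 722, 708, 730 and 795 CPM in healthy samples and at 636, 509, 382 and 491 CPM at day 7, a difference of -0.55 ± 0.17 (SE, edgeR adjusted p = 0.0869). Atp5a1 and Atp5c1, the alpha and gamma subunits, had means of 302 and 182 CPM at day 7 against 359 and 260 CPM. Of the 3 genes for the membrane ring, which encode the same mature c subunit, Atp5g1 and Atp5g3 stood at differences of -0.42 and -0.38 and Atp5g2 at -0.08.

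Among the mitochondrial members of complex I, the day 7 differences ran from 0.05 for mt-Nd3 to 0.76 for mt-Nd6. The gene for mt-Nd4l, a small membrane subunit, was at 89.7, 66.8, 75.6 and 72.2 CPM in healthy samples and at 91.3, 130, 157 and 105 CPM at day 7, with no overlap and a difference of 0.67 ± 0.24 (SE, edgeR adjusted p = 0.13). For mt-Nd4, mt-Nd5, mt-Nd1 and mt-Nd2 the differences were 0.71, 0.49, 0.19 and 0.11. In complex V, mt-Atp6 and mt-Atp8, whose reading frames overlap, were at 0.58 and 0.42. Of the mitochondrial genes, 7 have a near-identical copy on chromosome 1 with a row of its own in the table. For mt-Co3, which is identical to Gm28437 over 783 bases, the ratio of its counts to those of the copy was 1.0 to 1.002 in every library, so the copy gives no separate measurement. The ribosomal RNAs of the mitochondrion did pass the test. mt-Rnr1 and mt-Rnr2 rose by 1.58 ± 0.39 (adjusted p = 0.0438) and 1.32 ± 0.33 (adjusted p = 0.0486, SE and edgeR for both). Together they took 1.81% ± 0.21 of counts in healthy samples and 4.89% ± 1.51 at day 7 (SD, n = 4 each). Both calls were lost in 7 of the 8 leave-outs of 1 library (adjusted p of 0.0563 to 0.133 and 0.0515 to 0.143), all but day 7 replicate 1.

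**Figure D3:**
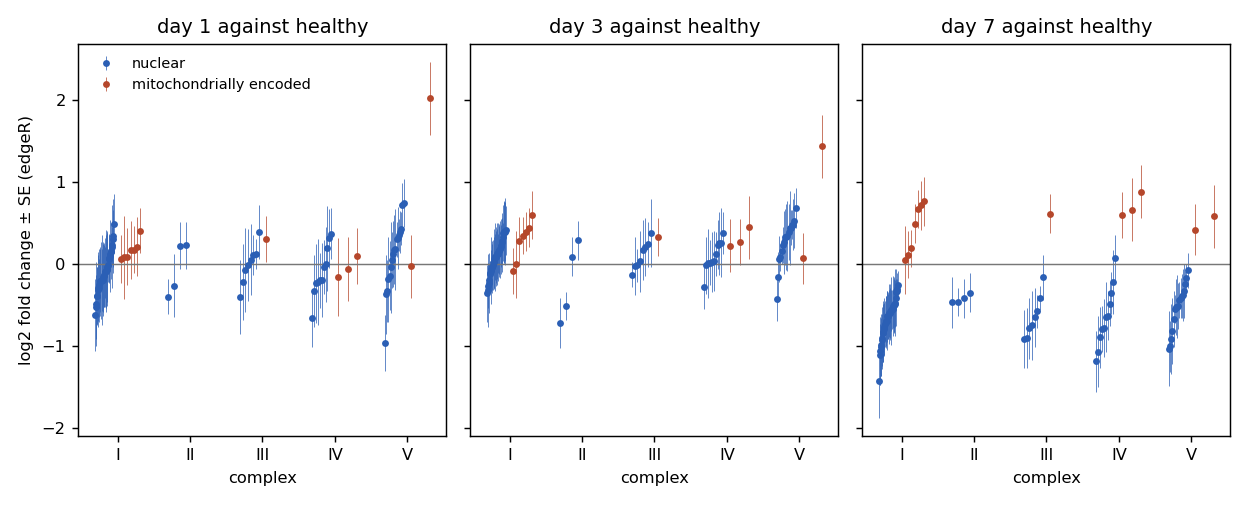
Log2 fold change from healthy samples with its SE (vertical axis), 1 point per member, by complex (horizontal axis), with a panel for each day and nuclear and mitochondrial members in separate colours. Members with a healthy mean of 5 CPM or less are left out. At day 7 the nuclear points lie below the line at 0, all but 1 of them, and the mitochondrial ones above it.

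Other values moved alongside the day 7 difference. Of 12 stellate cell markers, 11 were called higher at day 7 and none lower, and their summed level was 165 to 300.1 CPM in healthy samples and 480 to 7711 CPM at day 7. Of 13 hepatocyte markers none was called, and their sum was 476 to 16840 CPM in healthy samples, highest in replicate 4, and 1517 to 10990 CPM at day 7. Of 11 monocyte and neutrophil markers 1 was called higher, and their sum was 520 to 1411 CPM in healthy samples and 4187 to 9686 CPM at day 7, without overlap. Of 5 cholangiocyte markers 1 was called higher, and the sums of 79.2 to 193 and 598 to 5255 CPM did not overlap either. The 10 LSEC markers had a median log2 difference of -0.53 with none called, beside -0.58 for the nuclear members. The part of these cells in the difference was not tested. Deviations were also related to coding length in some libraries. Across the 83 nuclear members, Spearman's rho between coding length and the deviation from the healthy mean was 0.52, 0.24, 0.11 and 0.35 in the day 7 samples, -0.61 in healthy replicate 1, and 0.25 to 0.38 in the other healthy samples. Over all 16858 protein-coding genes tested it was -0.19 to 0.24 in the 14 libraries. The part of this in the difference was not tested.

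At day 1 the subunits of the 2 genomes lay close to their healthy levels. The median log2 difference was -0.07 over the nuclear and 0.09 over the mitochondrial members, beside -0.03 over all genes, and edgeR called 1 of the 96 members, mt-Atp6, against 4.06% of all genes. No nuclear member was called. At an unadjusted p under 0.05 there were 6 of the 83 nuclear members, where 4759 of 26626 genes were. DESeq2 called 2 of them and limma-voom 6, where they called 2836 of 21856 and 4308 of 26626 genes. Above every healthy sample were 12 nuclear and 1 mitochondrial member, where 20% of all genes were, and below every one of them 14 nuclear members, where 17.9% of all genes were. The day 1 group held 2 samples, and without either of them no member was called.

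Of the 5 complexes, the nuclear members of the ATP synthase had the highest median at day 1. It was 0.17, with 11 of 17 members above 0 and 6 below. Above every healthy sample were 7, where 20% of all genes were. Below every one of them were 2, Atp5k and Atp5s, where 17.9% of all genes were. Complex I stood at -0.14, complex II at -0.02, complex III at 0.02 and complex IV at -0.20. The difference between complexes was not tested. Atp5b was at 991 and 999 CPM at day 1, above the healthy range of 708 to 795 CPM. Atp5f1, a subunit of the peripheral stalk, was at 374 and 302 CPM against 184 to 226 CPM, and Atp5g1 at 178 and 150 CPM against 82.1 to 115 CPM. Their differences were 0.43, 0.72 and 0.75 on the log2 scale, and none passed the test.

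The 1 member called at day 1, mt-Atp6, has a copy in the nuclear genome that is identical over nearly all of its length. The gene (ENSMUSG00000064357, chrMT:7927-8607, plus strand) encodes the subunit of the ATP synthase that forms the proton path. A copy of mitochondrial sequence on a nuclear chromosome, Gm10925 (chr1:24613974-24614651, minus strand), is identical to it over 678 bases, so reads within that stretch cannot be told apart. The first 90 bases of both are shown because they hold no difference, and the capitals mark the 43 bases that mt-Atp6 shares with the end of mt-Atp8 (GRCm38).
mt-Atp6: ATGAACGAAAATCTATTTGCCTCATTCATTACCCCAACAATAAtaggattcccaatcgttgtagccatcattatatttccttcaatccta
Gm10925: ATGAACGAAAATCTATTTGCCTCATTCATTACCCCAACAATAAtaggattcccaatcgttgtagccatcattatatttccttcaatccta
In the 4 healthy samples mt-Atp6 was at 640, 447, 525 and 677 CPM, and at day 1 at 2569 and 2063 CPM. At day 3 it was at 941, 751, 3171 and 1312 CPM and at day 7 at 663, 837, 1204 and 714 CPM. The day 1 samples and day 3 replicates 3 and 4 were the 4 highest. Per count of Gm10925, mt-Atp6 had 0.250 to 0.276 counts in the other 10 libraries and 0.973 to 0.979 in these 4, and per count of mt-Co3 it had 0.176 to 0.264 and 1.10 to 1.41. mt-Atp6 was called at day 1 with a rise of 2.02 ± 0.45 (SE, edgeR adjusted p = 0.0209) and at day 3 with a rise of 1.43 ± 0.39 (adjusted p = 0.0402). With the counts of mt-Atp6 and Gm10925 summed, the differences were 0.74 (adjusted p = 0.28) and 0.59 (adjusted p = 0.249), and neither was called. Gm10925 by itself was not called, at differences of 0.08 (edgeR adjusted p = 0.957) and 0.27 (0.651). It was at 2633 and 2119 CPM at day 1 and at 3255 and 1340 CPM in day 3 replicates 3 and 4. Healthy samples were at 1732 to 2712 CPM. In every library it held more counts than mt-Atp6, so the sum is weighted to the copy and does not tell where the rises came from. Whether reads of the 2 identical genes were counted differently in the day 1 samples and day 3 replicates 3 and 4 was not tested. The call of mt-Atp6 at day 1 was also lost without healthy replicate 2 (adjusted p = 0.0588), healthy replicate 3 (0.0587), day 1 replicate 1 (0.328) or day 1 replicate 2 (0.0951). At day 3 it was lost without any 1 of the healthy replicates (0.085 to 0.112), and without day 3 replicate 3 the difference was 0.67 (0.161). With day 3 replicates 3 and 4 alone it was 1.94 (0.00657), and with replicates 1 and 2 alone 0.44 (0.212).

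**Figure D4:**
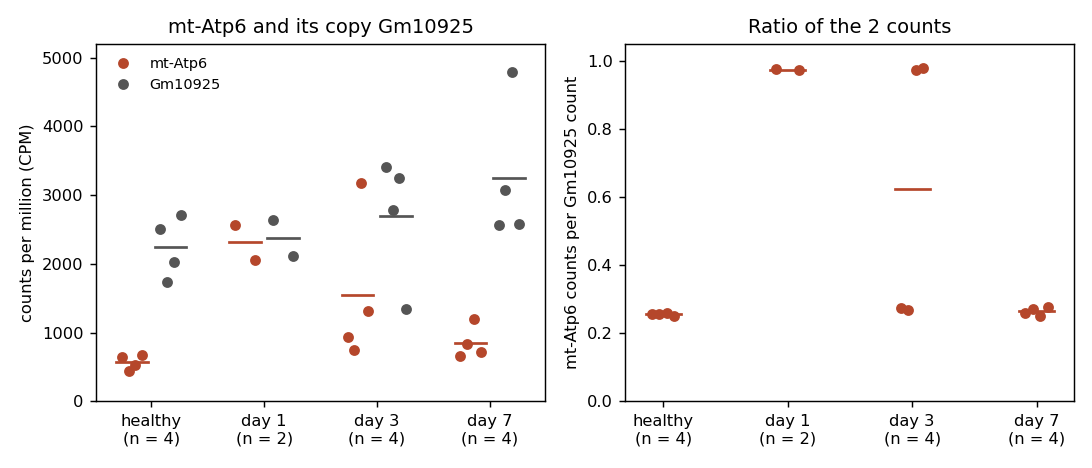
Level in CPM of mt-Atp6 and its nuclear copy Gm10925 (left) and mt-Atp6 counts per Gm10925 count (right), 1 point per library by group, with bars at the group means. In 4 libraries (day 1 replicates 1 and 2, day 3 replicates 3 and 4) the ratio is 0.973 to 0.979, and in the other 10 it is 0.250 to 0.276.

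At day 3 the members gave no common direction, and the libraries divided into pairs. Of the 83 nuclear members tested, 76 and 71 lay above the healthy mean in replicates 1 and 2, and 22 and 4 did so in replicates 3 and 4. The median deviation from the healthy mean was 0.71, 0.58, -0.28 and -1.14. Over all 4 libraries the nuclear median was 0.16 and the mitochondrial median 0.32, beside 0.18 over all genes. edgeR called 3 of the 96 members, all higher, where it called 7.19% of all genes. Above every healthy sample were 2 nuclear and 1 mitochondrial member (7.53% of all genes) and below every one of them 2 nuclear members (6.84% of all genes). With replicates 1 and 2 alone as day 3, 37 members were called, 35 of them higher, and the nuclear median was 0.52. With replicates 3 and 4 alone, 11 were called, 10 of them lower, and the median was -0.64. The medians over all genes were 0.08 and -0.08 in these refits. Their share of all genes called is not given, since the 7.19% belongs to the fit of all libraries. Day 3 replicates 1 and 2 also held more monocyte and neutrophil marker RNA, as given above. In mean log2 CPM, Kupffer cell and macrophage markers averaged 6.95 and 7.03 in them, against 5.56 and 5.21 in replicates 3 and 4. Lymphocyte markers averaged 4.79 and 4.27 against 2.68 and 0.72, and erythroid markers 6.86 and 7.11 against 5.02 and 4.69. Cholangiocyte markers averaged 2.97 and 3.40 against 2.49 and 0.15. LSEC markers stood lower in replicates 1 and 2 (9.63 and 9.84 against 10.11 and 10.27), and hepatocyte and stellate cell markers overlapped. Spearman's rho with coding length was -0.53 and -0.46 in replicates 1 and 2 and 0.41 and 0.53 in replicates 3 and 4. The part of any of these in the split was not tested.

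In complex II, 2 members ran against the others in replicates 1 and 2. Sdhc was at 40.6 and 28.7 CPM in them and at 90.5 and 82.0 CPM in replicates 3 and 4, against 91.8 to 108 CPM in healthy samples, and Sdha was at 134, 110, 169 and 157 CPM against 187 to 242 CPM. Both were below every healthy sample in all 4 libraries, at differences of -0.72 and -0.52 (edgeR adjusted p = 0.0864 for Sdha), and neither passed the test. Sdhb in the same samples was at 268, 255, 164 and 110 CPM against 148 to 187 CPM.

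The 2 nuclear members called at day 3 were minor isoforms of complex IV. Cox6b2 (ENSMUSG00000051811, chr7:4751792-4753094, minus strand), known as the testis form of subunit 6b, was at 0.758, 0.940, 1.04 and 0.755 CPM in healthy samples and at 3.83, 3.54, 2.02 and 1.25 CPM at day 3. All day 3 samples were higher, and it rose by 1.60 ± 0.42 (SE, edgeR adjusted p = 0.036). At day 7 it was at 1.14, 3.22, 2.16 and 1.48 CPM, again above all healthy samples, at 1.19 ± 0.42 (adjusted p = 0.128). Cox7a1 (ENSMUSG00000074218, chr7:30184144-30186078, plus strand), the form of heart and skeletal muscle, was at 0.319, 0.317, 0.478 and 0.469 CPM in healthy samples. It was at 2.64, 1.99, 0.623 and 0.584 CPM at day 3, with replicates 1 and 2 well above the others, and rose by 1.88 ± 0.52 (SE, edgeR adjusted p = 0.0454). Cox6b2 lost its call without 7 of the 8 libraries left out in turn (adjusted p of 0.0562 to 0.103, all but day 3 replicate 4) and Cox7a1 without 6 of 8 (0.0888 to 0.15, all but day 3 replicates 3 and 4). With day 3 replicates 1 and 2 alone, the differences were 1.95 for Cox6b2 (edgeR adjusted p = 0.00466) and 2.41 for Cox7a1 (0.00195). With replicates 3 and 4 alone they were 0.88 (0.215) and 0.57 (0.449), and neither was called. The common counterparts Cox6b1 and Cox7a2 stood at means of 357 and 231 CPM at day 3, so these isoforms made up a small part of the RNA for their subunits. Stellate cell markers were called higher in 10 of 12 at day 3, with sums of 869 to 2699 CPM, and monocyte and neutrophil markers in 5 of 11, with sums of 1392 to 13440 CPM against 520 to 1411 CPM in healthy samples. The part of these cells in the 2 isoforms was not tested.

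Cox6a2, the muscle form of subunit 6a, followed the same division of libraries. It was at 1.28, 2.53, 3.70 and 0.309 CPM in healthy samples, 13.4 and 12.8 CPM at day 1, 21.0, 11.9, 0.524 and 0.425 CPM at day 3, and 0.970 to 1.53 CPM at day 7. The day 1 samples and day 3 replicates 1 and 2 were the 4 highest. The difference at day 1 was 2.75 ± 1.14 (SE, edgeR adjusted p = 0.221), so it did not pass the test. Its exons overlap those of Itgad, a leukocyte integrin gene, by 70 bases, the strand setting of the counting is not given in the sources used here, and 4 of 11 monocyte and neutrophil markers were called higher at day 1. The part of these in its level was not tested.

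**Figure D5:**
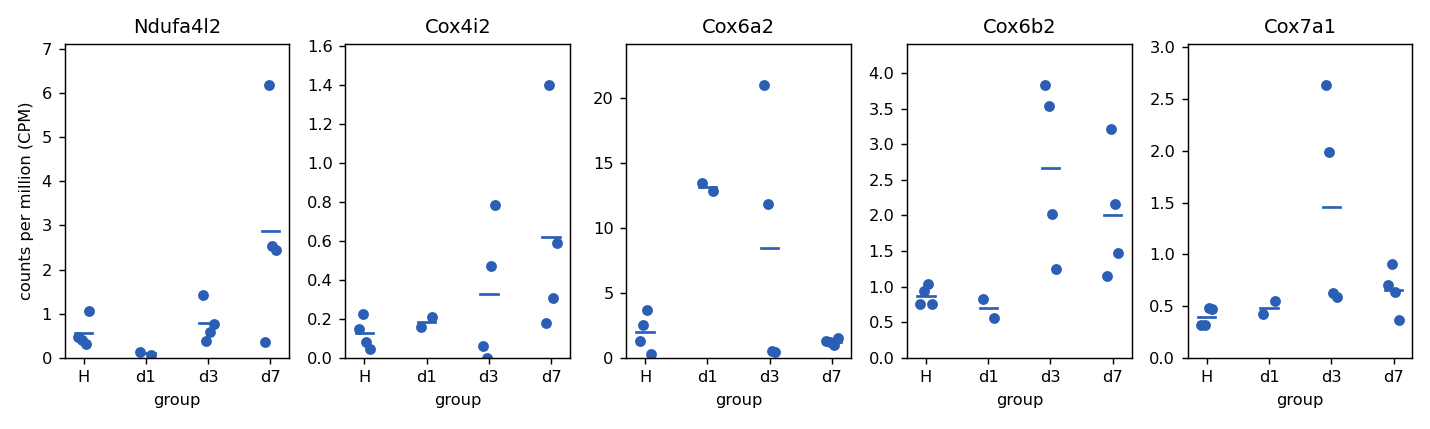
Level in CPM (linear axes, each with its own range) of the minor isoforms Ndufa4l2, Cox4i2, Cox6a2, Cox6b2 and Cox7a1 in each library, by group (H, healthy), with bars at the group means. Cox6a2 is highest at day 1 and in day 3 replicates 1 and 2 (11.9 to 21.0 CPM), and Ndufa4l2 in 3 of the 4 day 7 samples (2.45 to 6.18 CPM).

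Between day 1 and day 7, subunits of the ATP synthase fell and Ndufa4l2 rose. edgeR called 4 of the 96 members, against 8.04% of all genes, and the medians were -0.57 for nuclear and 0.45 for mitochondrial members beside 0.03 over all genes. Atp5b (ENSMUSG00000025393, chr10:128083273-128090391, plus strand) fell by 0.98 ± 0.20 (adjusted p = 0.0108). Atp5f1 (ENSMUSG00000000563, chr3:105942698-105960099, minus strand), at 374 and 302 CPM at day 1 and 147, 197, 156 and 104 CPM at day 7, fell by 1.16 ± 0.26 (adjusted p = 0.0181). Atp5g1 (ENSMUSG00000006057, chr11:96068852-96075670, minus strand), at 178 and 150 CPM at day 1 and 77.1, 83.6, 62.9 and 68.1 CPM at day 7, fell by 1.17 ± 0.29 (adjusted p = 0.0273, SE and edgeR for all 3). In each of the 3 genes every day 7 sample lay below both day 1 samples, as in 68 members, where 23.1% of all genes did so. Above both day 1 samples were 5 members, where 20.4% of all genes were. Without either day 1 sample all 3 calls were lost (adjusted p of 0.0807 to 0.305), and so were those of Atp5g1 without day 7 replicate 3 (0.0795) or 4 (0.0723) and of Atp5b without day 7 replicate 4 (0.0526). Atp5f1 shares exon bases with Wdr77 and Atp5g1 has a processed pseudogene, Gm10039, that is 99.8% identical to it over 411 bases, so part of their reads may have been placed elsewhere.

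Ndufa4l2 (ENSMUSG00000040280, chr10:127514967-127517154, plus strand) is known as a target of hypoxia-inducible factor and as a marker of pericytes and other mural cells. It was at 0.132 and 0.0660 CPM at day 1 and at 0.353, 6.18, 2.54 and 2.45 CPM at day 7, with 6 to 442 counts per library over all groups. It rose by 4.85 ± 1.11 between these days (SE, edgeR adjusted p = 0.0194), a call that was lost without day 1 replicate 1 (0.195) or 2 (0.194). Healthy samples were at 0.479, 0.411, 0.302 and 1.06 CPM, which overlapped with day 7, its exons share 32 bases with Shmt2, and the difference from them was 2.35 ± 0.72 (adjusted p = 0.0872). Day 7 replicate 1, the lowest of its group for Ndufa4l2, also had the lowest mean log2 CPM of the stellate cell markers (4.19), and replicate 2, the highest, had the highest (7.98). Cox4i2, the isoform of subunit 4 that responds to low oxygen, was at 0.177, 1.40, 0.309 and 0.591 CPM at day 7, again highest in replicate 2, and at 0.0458 to 0.223 CPM in healthy samples. At day 3, Ndufa4l2 was at 1.42, 0.374, 0.590 and 0.775 CPM and Cox4i2 at 0.0605, 0, 0.470 and 0.786 CPM. The stellate cell markers averaged 6.33, 6.08, 5.34 and 6.52 in log2 CPM in these libraries, against 2.56 to 3.23 in healthy samples. The part of stellate cells in either gene was not tested. Ndufa4, the abundant paralogue, stood at means of 94.1 CPM at day 7 and 179 CPM in healthy samples.

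Between day 3 and day 7, the nuclear median was -0.76 and the mitochondrial median 0.22, beside -0.10 over all genes. edgeR called 1 of the 96 members, against 1.77% of all genes. This was Atp5g1, at 194, 185, 169 and 76.7 CPM at day 3, which fell by 1.10 ± 0.25 (SE, adjusted p = 0.0416) with overlapping groups. Below every day 3 sample were 4 nuclear members, where 4.15% of all genes were, and above every one of them none, where 3.76% were. The comparison turned on the day 3 libraries. With replicates 1 and 2 alone 68 members were called, 66 of them lower at day 7, and the nuclear median was -1.14. With replicates 3 and 4 alone none was called and the median was 0.03, and without day 3 replicate 4 alone 55 were called, all lower. The medians over all genes were 0.07 and 0.14 with these pairs. The share of all genes called is not given for the 3 refits, since the 1.77% belongs to the fit of all libraries. Atp5g1 stood at -1.25 (edgeR adjusted p = 0.0012) with replicates 1 and 2 alone and at -0.70 (0.195) with replicates 3 and 4 alone. Its call was also lost in 7 of the 8 leave-outs of 1 library (adjusted p of 0.0891 to 0.223), all but day 3 replicate 4.

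Other genes of the pathway lay on the nuclear side at day 7. Of 48 assembly factors, 44 were below 0, with a median of -0.46 on the log2 scale, and 2 (4.17%) were called, where 3.18% of all genes were: Atpaf1, a chaperone of the ATP synthase, which fell by 0.72, and Ecsit, a factor of complex I assembly, which fell by 0.79. Of 78 mitochondrial ribosomal proteins, 77 were below 0, with a median of -0.53, and Mrpl49 and Mrpl9 (2.56%) were called lower. Of 26 genes for transcription and upkeep of mitochondrial DNA and RNA, 23 were below 0, with a median of -0.43. Fastkd2 and Pnpt1, which act on mitochondrial RNA, fell by 1.03 and 0.76, and Polg2, the accessory subunit of the mitochondrial DNA polymerase, rose by 1.40. Of 14 citric acid cycle genes, 13 were below 0, with a median of -0.39, and Idh3a, a subunit of NAD-dependent isocitrate dehydrogenase, fell by 0.86. All 7 carriers and subunits outside the symbol families were below 0, with a median of -0.53 and none called. The inhibitor Atpif1 lay at -0.49, and 12 regulators of mitochondrial biogenesis at a median of -0.23 with none called. Each of the 8 listed protein-coding genes called here lost its call in 5 to 7 of the 8 leave-outs of 1 library.

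Fewer genes of these lists were called at the earlier days. At day 1, Hif1a, the oxygen-sensitive subunit of hypoxia-inducible factor, rose by 1.99 ± 0.17 (SE, edgeR adjusted p = 4.45e-05), from a mean of 90.0 CPM to 357 CPM, and the citric acid cycle gene Mdh2 rose by 0.74 while Idh2 fell by 0.85. No other listed gene was called at day 1. At day 3, Uqcc1, an assembly factor of complex III, fell by 0.61, and Polg2 rose by 1.18, and both calls were lost without any 1 healthy replicate. With day 3 replicates 1 and 2 alone Uqcc1 stood at -0.89 (edgeR adjusted p = 0.00699) and Polg2 at 0.70 (0.18), and with replicates 3 and 4 alone at -0.50 (0.115) and 1.45 (0.0264). The calls of Mdh2 and Idh2 at day 1 were also lost without any 1 library. Between day 1 and day 7, Cycs, the carrier cytochrome c, fell by 1.70 and Hif1a fell by 2.27. Of 78 mitochondrial ribosomal proteins 11 (14.1%) were called, all lower, where 8.04% of all genes were called. Also lower were 4 of 14 citric acid cycle genes (28.6%), namely Idh3a (-1.59), Mdh2, Dld and Sucla2. Trmt10c, Hsd17b10, Pnpt1 and Fastkd2, 4 of 26 genes for mitochondrial DNA and RNA (15.4%), were called lower. So were Sco2 and Sdhaf1, 2 of 48 assembly factors (4.17%). Sco2 was at means of 0.906 CPM at day 7 and 2.76 CPM at day 1. With each of the 6 libraries left out in turn, Sco2 lost its call in all 6 fits. Sdhaf1, Trmt10c, Fastkd2 and Sucla2 lost theirs in 5, Hsd17b10 and Dld in 4, and Mdh2 and Pnpt1 in 2. Of the 6 leave-outs of 1 library, Cycs lost its call in 4 (edgeR adjusted p of 0.0523 to 0.167), 10 of the 11 ribosomal proteins in 4 or 5, and Mrps18b in 1. Cycs was also called between day 3 and day 7, with a fall of 1.47 that was lost in 7 of the 8 leave-outs. It stood at -1.88 (edgeR adjusted p = 0.000249) against day 3 replicates 1 and 2 alone and at -0.56 (0.263) against replicates 3 and 4 alone. Between day 3 and day 7, 5 of 78 mitochondrial ribosomal proteins (6.41%) and 2 of 14 citric acid cycle genes (14.3%) were also called lower, where 1.77% of all genes were called. They lost these calls in 3 to 7 of the 8 leave-outs. With day 3 replicates 3 and 4 alone, only Mrpl17 and Idh3a of them were called. Hif1a kept its calls in every leave-out, as did Idh3a its call between day 1 and day 7.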

How the data were processed

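RNA sequencing of 14 libraries was analysed from 1 table of gene counts. Per the labels and the methods of the study, the authors used STAR, StringTie and the genome build GRCm38 to make the deposited whole-number counts (versions and the strand setting are not given in the sources used here), so reads that match more than 1 place can be lost or assigned to either. The study also names a CD45- gate and states that 2 day 1 samples were not sequenced because of low RIN values, a measure of RNA integrity.

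Genes were kept by edgeR's filterByExpr (minimum count 10, total 15; 26626 of 54524), scaled by TMM and fitted together over all 4 groups, with no covariate, by edgeR 4.0.16 (quasi-likelihood test, R 4.3.3). P-values were adjusted by Benjamini-Hochberg over all genes, and a call means an adjusted p under 0.05. SEs are the log2 difference divided by the root of F. CPM are TMM-scaled, and levels per kilobase use the summed exon length. The labels name no batch. The scripts were tested on simulated counts. A gene under 3 counts was taken as not detected, for counting error only. Depth was 46401496 to 103912264 counts, so counting error is small for all but the minor isoforms.

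The comparisons were repeated with limma 3.58.1 (voom, quality weights), DESeq2 1.42.0, other scalings and filters, a replicate block, only 2 groups, and each library left out. Summing mt-Atp6 with Gm10925 and keeping pairs of day 3 libraries were chosen after seeing the data. Named genes were all mitochondrial members, central nuclear subunits, isoforms and called members. The members, lists and rules were chosen with earlier results of these data known. Copies were found with BLAST+ 2.17.0, and sequences are RefSeq (promoters) or GENCODE. Tables were handled in Python 3.11.15. The values of 1 named subunit are not reported here, and it is left out of the heat map.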

Additional observations from a re-analysis of the deposited data

Results flagged for a closer look

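Each group of 4 samples was screened for a value set apart from the other 3, taken as a gap to the nearest sample, relative to the whole range, past the 95% limit of Dixon's test for 4 samples. Over 52 quantities this gave 7 of 156 groups, and chance gives about 1 in 20. Healthy replicate 1 was set apart in 4 of them, each time as the highest sample: Cox6a1 at 959 CPM (the others 632 to 664), Cox6b1 at 512 CPM (305 to 322), Cox8a at 529 CPM (354 to 378) and Ndufa4 at 251 CPM (148 to 165). In the same library 72 of the 83 nuclear members lay above the healthy mean. Mitochondrial mt-Nd1 stood at 2640 CPM in day 7 replicate 3, against 1710 to 1830 CPM in the others. Cox7b2 was at 0.0699 CPM in day 7 replicate 2 and Cox8b at 0.0726 CPM in day 3 replicate 1, while the others of their groups were at 0, so both rest on a few counts.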

How the results depend on the processing

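At day 7 the medians kept their directions under all alternatives run, from -0.70 to -0.48 for nuclear and 0.40 to 0.72 for mitochondrial members, and the ratio of the 2 genomes lay 0.97 to 1.35 above healthy samples when 1 library was left out. Counts of called members depended on the method. DESeq2 called 3 (day 1), 7 (day 7), 10 (day 7 against day 1) and 13 (day 7 against day 3), and limma-voom 7, 62, 52 and 72 in these and 40 at day 3. Over all genes, DESeq2 called 2836 of 21856, 2713 of 23399, 4575 of 22886 and 1783 of 19814 in the same order. Of 26626 genes, limma-voom called 4308, 7047, 7610 and 6002 in these and 7265 at day 3. For the other fits in this paragraph no count over all genes is given. Fits of only the 2 groups compared called 4 (day 1), 0 (day 3), 42 (day 7), 31 (day 7 against day 1) and 0 (day 7 against day 3). With no filter on low counts 0 were called at day 3 and 0 for day 7 against day 3. Size and TMM factors from nuclear genes gave 1 and 0 in these, and RLE factors or protein-coding genes only gave 0 in the second. With mt-Atp6 and Gm10925 summed 0 were called at day 1. With day 3 left with replicates 3 and 4, and then with 1 and 2, the counts were 11 and 37 against healthy samples and 0 and 68 against day 7. The ratio of the genomes then lay at 0.79 and -0.16 against healthy samples, and day 7 lay 0.39 and 1.34 above day 3. With 1 library left out, the counts ranged from 0 to 1 (day 1), 0 to 7 (day 3), 0 to 5 (day 7), 0 to 6 (day 7 against day 1) and 0 to 55 (day 7 against day 3). The cause of these differences was not tested, beyond the fewer samples in some fits. Of 18 pairs of samples with the same replicate number, none correlated above 0.1 (-0.23 to 0.096), so the numbers were not taken as pairing. A replicate block gave 0 calls at day 3, 2 for day 7 against day 1 and 0 for day 7 against day 3. Depth limits only the isoforms with few counts.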

Other observations

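The level of mt-Co1 was lowest in healthy replicate 1 and day 1 replicate 2 (2438 and 2456 CPM), while the other 12 libraries were at 3968 CPM or more. In healthy replicate 1 the other 12 of the 13 mitochondrial members lay above the healthy mean. Cox4i1, the common form of subunit 4, varied between samples of a group, with 395, 742, 238 and 201 CPM at day 3 and 227 and 336 CPM at day 1.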
